A study of Homo sapiens with 4 samples.

Results

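The 10 genes described here build or serve the brush border, the layer of microvilli on the absorptive face of the intestinal epithelium. They are VIL1, PLS1, CDHR2, CDHR5, ANPEP, DPP4, ALPI, FABP1, FABP2 and LGALS4, and they were taken by name from the 19775 genes measured. The rule took each probe set (a group of short probes that reads a transcript) whose only annotated symbol was one of these names, which gave 21 probe sets for the 10 genes. The cells were LSTGFBR2, a colon cancer epithelial line that carries the type II TGF-β receptor, TGFBR2, under a doxycycline-inducible promoter. Total RNA was read on 4 HG-U133 Plus 2.0 arrays, 2 from untreated cells and 2 from cells given human recombinant TGF-β1 at 5 ng/ml for 16 hours. The design text has cells seeded with or without doxycycline, the treatment protocol has it in the medium from seeding, and the labels of single arrays do not say which received it, so doxycycline and TGF-β1 cannot be told apart here. In RNA from whole cultures, fewer cells of a kind and less RNA per cell cannot be told apart either.

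A microvillus is a finger of membrane held up by a bundle of actin filaments. Villin and plastin 1 cross-link that bundle, ezrin ties it to the membrane, and a pair of cadherin-related proteins, CDHR2 and CDHR5, join neighbouring microvilli at their tips. The membrane carries digestive enzymes such as aminopeptidase N and alkaline phosphatase, and the cytoplasm beneath holds fatty acid binding proteins that take up dietary lipid. In the intestine these genes come on as cells leave the crypt and differentiate, and colon cancer lines keep them to very different degrees. TGF-β1 is a cytokine that restrains epithelial growth.

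The DNA just upstream of 4 of these genes is shown for orientation. DPP4 and LGALS4 had the largest lower and higher readings with TGF-β1 among the 10, and FABP1 and FABP2 are a related pair whose readings lay in the lower part of the arrays. Each line gives the 250 bases before the annotated start, 5′ to 3′ on the strand of the gene, which is the minus strand for all 4. The sequences and their GRCh38.p14 coordinates come from RefSeq. Capitals mark matches, on either strand, to short motifs of intestinal and SMAD factors. The motif of CDX2 was written as TTTATN, that of HNF1 as GTTAAT and that of the GATA family as AGATAA. The box of the TATA binding protein was written as TATAAA, the longer and shorter SMAD elements as GTCTAGAC and CAGACA, and the HNF4 motif as CAAAGTCCA.
FABP1, chr2:88128063-88128312: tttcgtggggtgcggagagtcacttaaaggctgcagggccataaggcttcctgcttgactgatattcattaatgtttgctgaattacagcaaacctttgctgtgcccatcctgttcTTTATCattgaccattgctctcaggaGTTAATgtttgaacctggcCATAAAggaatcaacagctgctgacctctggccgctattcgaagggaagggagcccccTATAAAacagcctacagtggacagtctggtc
FABP2, chr4:119322139-119322388: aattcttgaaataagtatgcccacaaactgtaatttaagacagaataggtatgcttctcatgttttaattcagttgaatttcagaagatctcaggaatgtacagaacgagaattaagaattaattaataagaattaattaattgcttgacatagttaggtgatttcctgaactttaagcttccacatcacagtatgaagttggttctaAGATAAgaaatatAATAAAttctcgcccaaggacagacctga
DPP4, chr2:162074216-162074465: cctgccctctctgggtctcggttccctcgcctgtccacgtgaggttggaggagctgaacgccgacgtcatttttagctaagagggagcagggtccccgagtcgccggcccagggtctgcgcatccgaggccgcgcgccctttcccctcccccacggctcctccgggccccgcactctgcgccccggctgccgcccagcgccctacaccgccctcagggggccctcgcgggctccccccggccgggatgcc
LGALS4, chr19:38812946-38813195: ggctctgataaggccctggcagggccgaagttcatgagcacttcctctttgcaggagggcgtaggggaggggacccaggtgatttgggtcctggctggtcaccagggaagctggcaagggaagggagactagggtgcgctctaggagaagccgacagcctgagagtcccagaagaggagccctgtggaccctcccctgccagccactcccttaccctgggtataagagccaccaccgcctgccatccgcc

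FABP1 held 3 matches to TTTATN, of which the match nearest the start shares its letters with the TATAAA match on the other strand, 31 to 26 bases before the start. It also held GTTAAT 108 to 103 bases before the start. FABP2 held AGATAA 42 to 37 bases and TTTATN 29 to 24 bases before the start. None of the motifs, in the letters given above, was found in these windows of DPP4 and LGALS4. Other spellings that the same factors may bind were not searched, so the windows are not shown to lack such sites. Promoters were matched for 8 of the 10 genes, with 12 starts in all; VIL1 and CDHR5 had no entry. Over those starts TTTATN was found for 3 genes, GTTAAT for 3, AGATAA for 2, TATAAA for 1, CAGACA for 1, and GTCTAGAC and CAAAGTCCA for 0. A gene was counted if any of its starts matched, whereas the shares that follow are of single windows, so the 2 are not directly comparable. Among 34788 upstream windows of the same length, 32.7% held TTTATN, 6.26% GTTAAT, 9.21% AGATAA, 10.8% TATAAA, 13.6% CAGACA, 0.178% GTCTAGAC and 0.328% CAAAGTCCA. A match is a string of letters and not a measured binding site.

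The arrays separated the groups clearly outside the brush border genes. The _s_at probe set of TGFBR2 read 9.44 and 9.55 in untreated cells and 14.70 and 14.92 after TGF-β1, while its _at probe set read 10.47 and 10.81 against 10.58 and 10.76. Of 7 measured TGF-β response controls, 6 rose and 1, MYC, fell. All 8 epithelial markers, among them EPCAM and KRT18, lay above the array medians on all 4 arrays. Of 16 measured markers of fibroblasts, endothelium and leukocytes, 9 lay under the medians on all 4 arrays. Above them on all 4 lay 2 of 6 fibroblast, 2 of 6 endothelial and 1 of 4 leukocyte markers. The linear values of the 6 fibroblast markers summed to 1161 on the lower and 1512 on the higher untreated array. After TGF-β1 the lower and higher sums were 1013 and 1150. COL3A1 had the largest change of the 6 (log2 fold change -1.72, limma adjusted p = 0.267), beside a list median of -0.09. The part of these markers in the values below was not tested. The number of arrays limits the precision.

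By 1 probe set per gene, 6 of the 10 brush border genes read above the array median on all 4 arrays and 4 read under it on all 4. Values are RMA values on the log2 scale, so a step of 1 is a doubling, and the medians of all probe sets lay between 6.57 and 6.61. Above the medians were the actin bundlers VIL1 and PLS1, the lectin gene LGALS4, the peptidase gene DPP4 and the tip-link cadherins CDHR2 and CDHR5. Under them were FABP1, FABP2, ANPEP and ALPI, in untreated and TGF-β1 arrays alike. No gene was dim in both groups, that is, under a mean of 5, by the probe set used, though 2 other probe sets were, 205892_s_at of FABP1 and 234458_at of ANPEP. Of the 21 probe sets, 11 lay above the medians on all 4 arrays, 8 under them on all 4 (the 2 dim ones included) and 2 on both sides. RMA values carry no detection call, and probes differ in how brightly they read the same amount of RNA, so a low reading does not show absence. Nor does a reading above the medians by itself show that a gene was expressed.

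**Figure D1:**
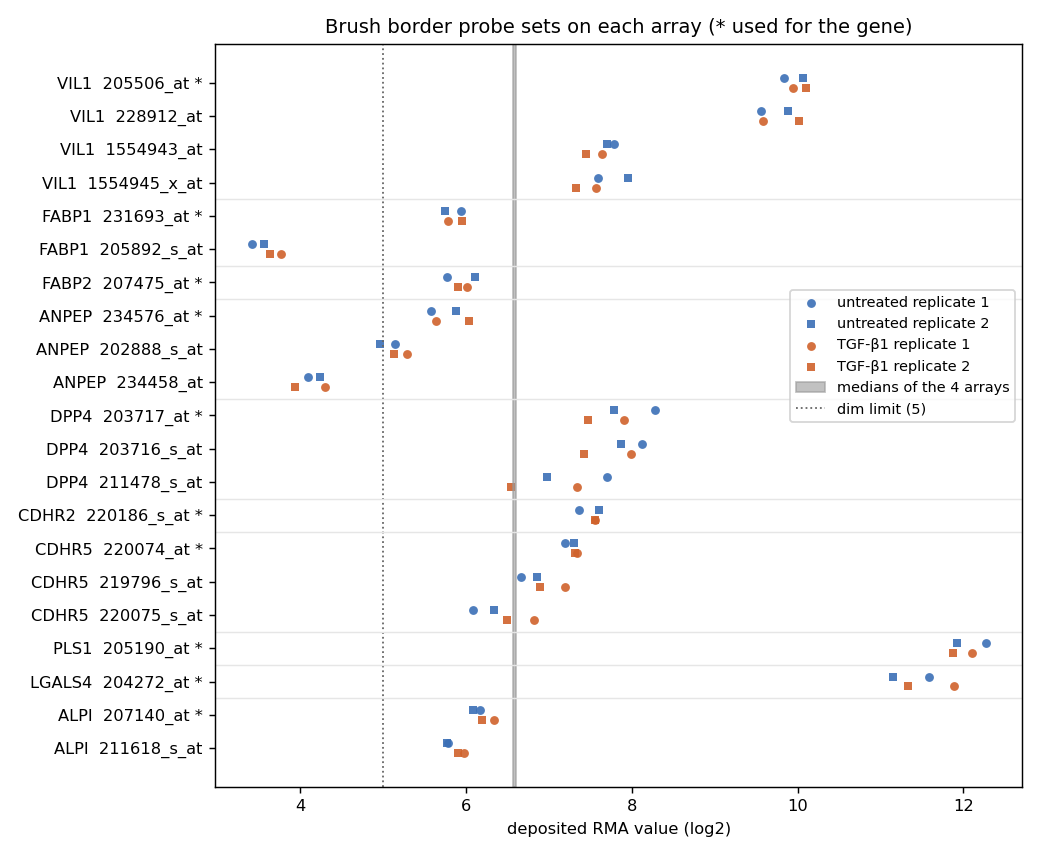
Deposited RMA values (log2, horizontal axis) of the 21 brush border probe sets on each of the 4 arrays, untreated in blue and TGF-β1 in orange, with circles for replicate 1 and squares for replicate 2. Probe sets of PLS1 and LGALS4 read above 11, and those of FABP1, FABP2, ANPEP and ALPI lie left of the grey band of array medians. The colours overlap in some lines and not in others, such as that of 220075_s_at of CDHR5.

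At a limma adjusted p under 0.05, 0 of the 10 brush border genes rose and 0 fell, while 3.34% of all genes were called (1.87% higher and 1.47% lower). At an unadjusted limma p under 0.05 the count was also 0, against 16.7% of all genes. The log2 fold changes ran from -0.34 to 0.23 with a median of 0.07, beside a median of 0.00 over all genes. The 95% limma intervals of all 10 lay inside a 2-fold change in either direction, as did those of 95.7% of all genes. A failure to pass the threshold does not show that a gene was unchanged, and the intervals give the sizes these arrays leave possible. The groups did not overlap for 2 of the 10 genes, CDHR5 and ALPI, against 44.4% of all genes.

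Of the actin bundlers, VIL1 encodes villin, which bundles actin and can also cut it. It read 9.84 and 10.06 in untreated cells and 9.95 and 10.10 after TGF-β1, so the groups interleaved. The log2 fold change was 0.08 ± 0.121 (SE by limma, n = 2 per group, adjusted p = 0.855), with a 95% interval from -0.22 to 0.37. PLS1 encodes plastin 1, the bundler also called I-fimbrin. It read 12.27 and 11.92 in untreated cells and 12.10 and 11.88 after TGF-β1, again with overlap. Its log2 fold change was -0.10 ± 0.154 (SE by limma, adjusted p = 0.844), and at most a 1.39-fold lower level lay within its interval.

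The 4 probe sets of VIL1 did not read alike. The probe set used, 205506_at, and 228912_at had log2 fold changes of 0.08 and 0.07. The other two, 1554943_at and 1554945_x_at, were both drawn from the same complementary DNA record and read -0.20 and -0.32. For 1554943_at the values were 7.79 and 7.70 in untreated cells and 7.64 and 7.45 after TGF-β1. For 1554945_x_at they were 7.59 and 7.96 against 7.57 and 7.33. Both TGF-β1 arrays thus lay below both untreated arrays in each of these probe sets, and neither passed (limma adjusted p = 0.579 and 0.498 over all probe sets). A lack of overlap, in either direction, was found for 44.4% of all genes. An _x_at name marks probes that may also match other transcripts. Whether the probe sets of VIL1 differed from each other in response was not tested.

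Of the tip-link cadherins, CDHR2 has 1 probe set, which read 7.37 and 7.60 in untreated arrays and 7.56 on both TGF-β1 arrays. Those arrays share the value to the last deposited digit; 0.738% of all genes had the same value on both arrays of a group. The TGF-β1 value fell between the untreated ones, and the log2 fold change was 0.07 ± 0.116 (SE by limma, adjusted p = 0.860). CDHR5, the partner that CDHR2 binds across the gap between microvilli, read 7.19 and 7.30 in untreated cells and 7.34 and 7.32 after TGF-β1. The TGF-β1 arrays lay just above, by 0.08 ± 0.101 on the log2 scale (SE by limma, adjusted p = 0.784).

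The other CDHR5 probe sets showed wider gaps in the same direction. With 219796_s_at the arrays read 6.66 and 6.86 untreated and 7.20 and 6.89 with TGF-β1, a log2 fold change of 0.28 ± 0.147 (SE). With 220075_s_at they read 6.08 and 6.34 untreated and 6.82 and 6.49 with TGF-β1, values that straddle the array medians. That log2 fold change, 0.45 ± 0.158 (SE), was the largest of the 21 probe sets. Before adjustment it alone had a limma p under the threshold of 0.05, and its limma adjusted p was 0.305 over all probe sets. TGF-β1 arrays were above untreated arrays in all 3 CDHR5 probe sets, but by the adjusted threshold 0 of the 21 brush border probe sets were called, beside 0.954% of all probe sets.

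Of the surface enzymes, DPP4 had the largest difference of the 10 genes. DPP4, also known as CD26, trims dipeptides from peptides that carry proline or alanine near the end. It read 8.28 and 7.79 in untreated cells and 7.91 and 7.47 after TGF-β1. Untreated replicate 2 lay below TGF-β1 replicate 1, so the groups overlapped. The log2 fold change was -0.34 ± 0.212 (SE by limma, n = 2 per group, adjusted p = 0.522), and the 95% interval ran from a 1.81-fold lower to a 1.13-fold higher level. The other 2 probe sets pointed the same way, with log2 fold changes of -0.29 ± 0.206 and -0.39 ± 0.326 (SE). In 203716_s_at the arrays read 8.12 and 7.87 untreated and 7.99 and 7.42 with TGF-β1, and in 211478_s_at 7.70 and 6.98 against 7.34 and 6.55. In all 3 probe sets TGF-β1 replicate 2 was the lowest array and untreated replicate 1 the highest.

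ANPEP encodes aminopeptidase N, or CD13, which removes amino acids from the front of peptides. Its probe set 234576_at read 5.58 and 5.88 in untreated cells and 5.64 and 6.04 after TGF-β1, all under the array medians. The gap inside each group was larger than the log2 fold change of 0.11 ± 0.172 (SE by limma, adjusted p = 0.859). The probe set 202888_s_at read 5.14 and 4.97 untreated and 5.29 and 5.13 with TGF-β1, and 234458_at 4.09 and 4.24 against 4.30 and 3.94. No ANPEP probe set separated the groups.

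ALPI encodes intestinal alkaline phosphatase, which strips phosphate from nutrients and bacterial lipopolysaccharide. It read 6.17 and 6.09 in untreated cells and 6.34 and 6.19 after TGF-β1, all under the medians. Its other probe set read 5.78 and 5.77 against 5.98 and 5.91. TGF-β1 arrays were above untreated arrays in both, by 0.14 ± 0.108 and 0.17 ± 0.103 on the log2 scale (SE), and neither passed (limma adjusted p = 0.646 over genes and 0.603 over probe sets). ALPI has close relatives in the placental and germ cell phosphatases ALPP and ALPG, whose transcripts its probes could also read, which was not tested. ALPP read 5.74 and 5.90 untreated and 5.86 and 5.87 with TGF-β1, and ALPG 7.17 and 7.20 against 7.09 and 6.93.

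The fatty acid binding proteins were low in both groups. FABP1, the liver type, and FABP2, the intestinal type, carry fatty acids inside the enterocyte. FABP1 read 5.94 and 5.75 in untreated cells and 5.78 and 5.95 after TGF-β1, a log2 fold change of 0.02 ± 0.119 (SE by limma, adjusted p = 0.976). Its dim probe set read 3.42 and 3.57 untreated and 3.77 and 3.64 with TGF-β1. FABP2 read 5.77 and 6.11 in untreated cells and 6.01 and 5.91 after TGF-β1, also a log2 fold change of 0.02 with an SE of 0.139 (adjusted p = 0.978 by limma). In the probe sets used for both genes the arrays of the groups interleaved, while in the dim FABP1 probe set both TGF-β1 arrays lay above both untreated arrays. Changes are compressed at such low readings.

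LGALS4 encodes galectin-4, a lectin that binds sugars on glycolipids and takes part in carrying enzymes to the apical membrane. It read 11.59 and 11.15 in untreated cells and 11.89 and 11.33 after TGF-β1. TGF-β1 replicate 1 was the highest array and untreated replicate 2 the lowest, with the others crossing between groups. The log2 fold change was 0.23 ± 0.224 (SE by limma, n = 2 per group, adjusted p = 0.717), the highest of the 10 genes. Its interval reached a 1.72-fold higher level.

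**Figure D2:**
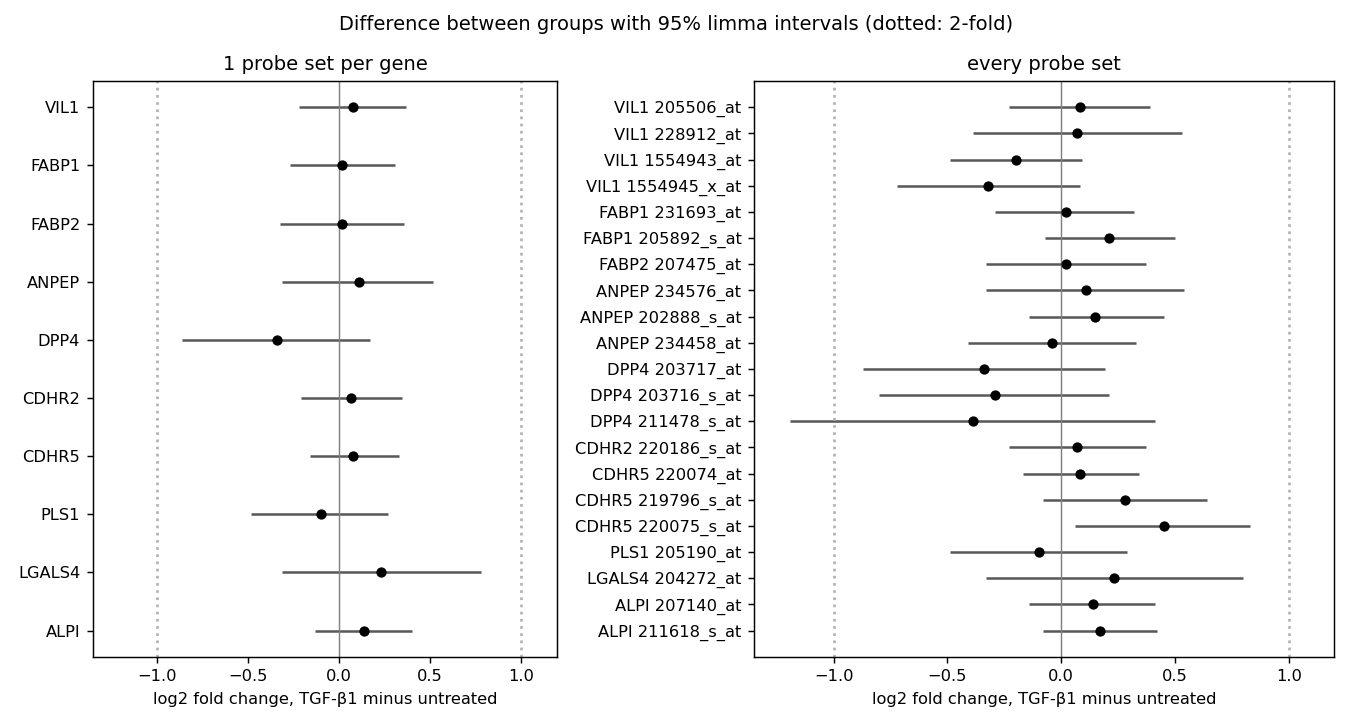
Log2 fold change (TGF-β1 minus untreated, points) with 95% limma intervals (lines), for 1 probe set per gene on the left and all 21 probe sets on the right. Every gene-level line crosses 0 and stays within the dotted 2-fold marks. On the right only 220075_s_at of CDHR5 lies clear of 0, before adjustment over all probe sets, and only the line of 211478_s_at of DPP4 passes a 2-fold mark.

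The spread between arrays of a group was larger than the difference between groups for most of these genes. The mean gap between the replicates of a group was larger than the difference between the group means for 8 of the 10, against 55.0% of all genes. For LGALS4 the gap was 0.50 on the log2 scale beside a difference of 0.23, and for DPP4 it was 0.47 beside -0.34. For ANPEP the gap was 0.35 and for PLS1 0.29. The exceptions were CDHR5, with a gap of 0.07, and ALPI, with a gap of 0.12, whose differences were 0.08 and 0.14. Replicate 1 minus replicate 2 was 0.49 untreated and 0.44 with TGF-β1 for DPP4, and 0.44 and 0.56 for LGALS4. Within a replicate number, TGF-β1 minus untreated was -0.37 and -0.32 for DPP4, and 0.29 and 0.17 for LGALS4. By number, 5 of the 10 genes were higher in both, 2 lower in both and 3 mixed. Over all 19775 genes these counts were 6033, 6366 and 7376. No label says that the numbers pair the arrays.

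**Figure D3:**
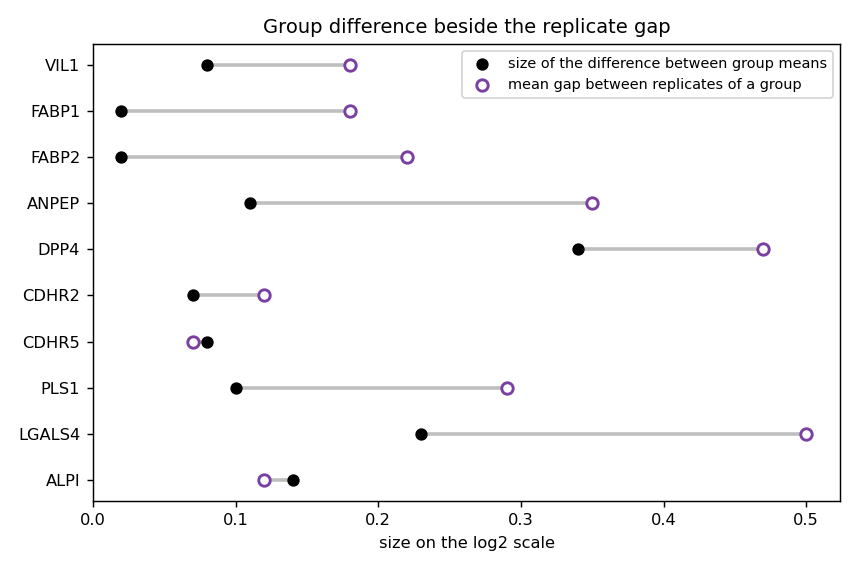
Size of the difference between the group means (filled) and mean gap between the 2 replicates of a group (open), both on the log2 scale, for each brush border gene. The open point lies to the right of the filled point for all but CDHR5 and ALPI, with the widest replicate gaps for LGALS4 (0.50) and DPP4 (0.47).

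Other genes of the enterocyte surface were read from 5 lists, of which 123 of 136 distinct genes were measured. The microvillus scaffold list, mostly proteins that bind, cap or anchor the actin core, held the calls that rose. Of 25 measured genes 2 rose and 0 fell, while 23 missed the threshold; the list median was 0.21 on the log2 scale. Over all genes 1.87% were called higher and 1.47% lower. At an unadjusted limma p under 0.05, 9 of the 25 were higher and 1 lower. The share of all genes at that p was 16.7% for both directions together and is not split by direction here. This list was chosen with earlier results of these data known and was not tested as a set. BAIAP2L1, a membrane-curving protein that brings EPS8 to microvillus tips, read 11.43 and 10.90 in untreated cells and 12.28 and 12.11 after TGF-β1. This was a 2.04-fold rise (limma adjusted p = 0.0443). STK10, a kinase of ezrin and its relatives, read 8.45 and 8.56 in untreated cells and 9.18 and 9.08 after TGF-β1, a 1.54-fold rise (limma adjusted p = 0.0387). Neither passed with any 1 of the 4 arrays left out, when 1 residual degree of freedom is left (limma adjusted p between 0.0590 and 0.208 for BAIAP2L1 and between 0.131 and 0.219 for STK10).

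The direct partners of the brush border proteins did not pass. EZR, which encodes ezrin and is the brightest of the list, read 12.77 and 12.68 in untreated cells and 13.08 and 13.01 after TGF-β1, without overlap (log2 fold change 0.32 ± 0.101 SE, limma adjusted p = 0.172). ANKS4B, a scaffold of the tip-link complex, read 6.71 and 6.70 untreated and 6.41 and 6.29 with TGF-β1 (log2 fold change -0.35 ± 0.101 SE, limma adjusted p = 0.140). USH1C, or harmonin, read 9.69 and 9.43 against 9.78 and 9.73, and the motor MYO7B of the same complex read 6.89 and 7.09 against 7.08 and 7.07. The actin bundler ESPN, the tip protein EPS8 and the membrane motor MYO1A had log2 fold changes of 0.12, 0.05 and -0.01. The tip-link scaffolds ANKS4B and USH1C thus differed in opposite directions, and neither passed.

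The enzyme and transport lists held no calls by limma. Of 17 measured brush border hydrolases 0 rose and 0 fell, and 0 had an unadjusted p under 0.05 (16.7% over all genes). Of these 12 read under the array medians on all 4 arrays, 4 of them dim in both groups. The largest changes were those of ENPEP (log2 fold change 0.22) and SI, the sucrase-isomaltase gene (-0.17, from 3.30 and 3.43 to 3.28 and 3.10), and ENPP3 was the brightest. Of 35 absorptive transport and lipid genes 0 rose and 0 fell, and 20 read under the medians. At an unadjusted limma p under 0.05, 2 of the 35 were lower and 0 higher, against 16.7% of all genes in either direction. KRT20, a keratin of differentiated surface cells, read 8.78 and 7.30 untreated and 8.16 and 6.74 with TGF-β1. The gap between its replicates was far wider than that between groups (log2 fold change -0.60 ± 0.594 SE, limma adjusted p = 0.730). Within each replicate number KRT20 was lower with TGF-β1, though no label says that the numbers pair the arrays. SLC9A2, a sodium-proton exchanger gene, had a log2 fold change of -0.59 ± 0.130 (SE by limma, adjusted p = 0.0738). FABP6, the ileal bile acid binding relative of FABP1 and FABP2, was the brightest at 11.40 and 11.18 untreated and 11.02 and 11.10 with TGF-β1 (limma adjusted p = 0.421).

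Among 13 measured enterocyte transcription factors 0 rose and 1 fell, with a median log2 fold change of -0.04. The gene was CDX2, the homeobox factor of intestinal identity, which read 9.32 and 9.14 in untreated cells and 8.57 and 8.43 after TGF-β1 (log2 fold change -0.73 ± 0.114 SE, limma adjusted p = 0.0327). Leaving out any 1 array put it above the threshold (limma adjusted p between 0.101 and 0.195). KLF5 was the brightest of this list, at a log2 fold change of 0.25. Of 34 measured relatives of the brush border genes in their own families 0 rose and 0 fell by limma. At an unadjusted limma p under 0.05, 2 of the 34 were higher and 1 lower, against 16.7% of all genes in either direction. The largest differences were those of the galectin gene LGALS1, 7.60 and 9.14 in untreated cells and 8.91 and 10.10 after TGF-β1, and of the villin relative GSN, or gelsolin, 8.76 and 9.55 against 9.55 and 10.22. Without a replicate block, neither passed (limma adjusted p = 0.403 and 0.321). LGALS3 was the brightest relative, at a log2 fold change of 0.10, and PLS3, which encodes another plastin, had a log2 fold change of 0.21.

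**Figure D4:**
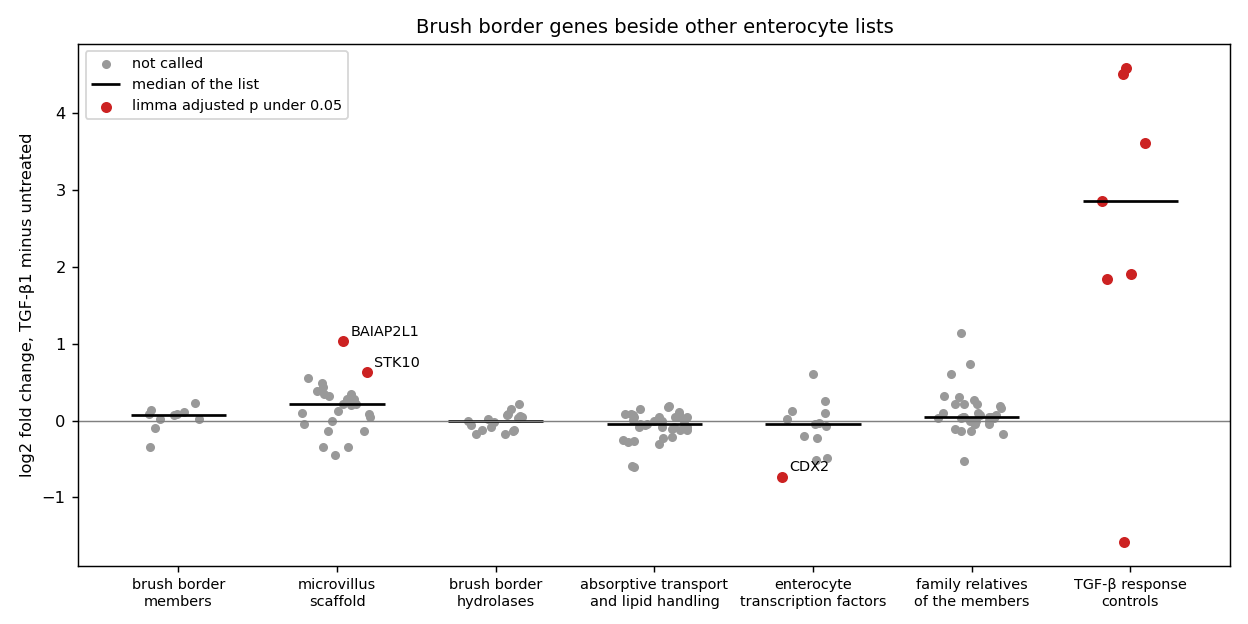
Log2 fold change (TGF-β1 minus untreated) of each measured gene of the brush border set, of the 5 other lists and of the TGF-β response controls. Red points mark genes at a limma adjusted p under 0.05, and bars mark list medians. The brush border genes lie between -0.34 and 0.23 with no red point; the red points outside the controls are BAIAP2L1, STK10 and CDX2.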

How the data were processed

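The deposited table holds 1 log2 value per probe set and array, made by the authors with RMA (background correction, quantile normalization and summarization), per the series' design text and the submitters' processing notes. The sources used here do not give the version of the RMA software. The log2 scale was judged from the range of the values. Since RMA forces a common distribution on all arrays, a change that most transcripts share would not show.

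Of 54675 probe sets, 62 are array controls, 41097 have 1 symbol in the platform annotation, 1801 several, and 11777 are unnamed here. The symbol of 41043 was taken through the Entrez ID, whether or not it differed from the annotated one. A gene was read by its brightest probe set on average over the 4 arrays. Groups came from the sample titles. The test was limma (version 3.58.1, R version 4.3.3; lmFit and eBayes, two-sided, 6.13 degrees of freedom) over all 19775 genes, and again over all probe sets that are not controls, with Benjamini-Hochberg adjustment; the script was tested on simulated data. An exact permutation test of 2 against 2 cannot go below 0.333. No label places the replicates in separate cultures, so p-values measure only how far these arrays spread, and that may be technical. The genes and lists were chosen with earlier results of these data known. All 10 genes are named; of each list, called members (otherwise the 2 largest changes), the brightest member and fixed direct partners are named. PLS3, ALPP and ALPG were added after their values were seen, as were EPCAM and KRT18 from the marker lists.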

Additional observations from a re-analysis of the deposited data

How the results depend on the processing

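No brush border gene was called among genes averaging at least 5 or 7 on the log2 scale, with an intensity trend, arrays centred on their medians or on 7 housekeeping genes, averaged probe sets, probe sets without _s_at or _x_at preferred, every probe set tested, a replicate block, any 1 array left out, the series' 2-fold rule (an unadjusted limma p under 0.05 and at least a 2-fold change, here in either direction) or an unadjusted p under 0.05. Of 126 alternative log2 fold changes of these genes 114 kept their direction, but many of them could not change it. The expression filters, the intensity trend, the replicate block and the fit of every probe set leave a log2 fold change as it was. The 12 that reversed were VIL1 at -0.09 with averaged probe sets, and the others with 1 of the 4 arrays left out. Over those 4 fits the values ran from -0.03 to 0.18 for VIL1, -0.08 to 0.11 for FABP1, -0.15 to 0.19 for FABP2, -0.09 to 0.31 for ANPEP, -0.04 to 0.19 for CDHR2, -0.28 to 0.08 for PLS1, -0.04 to 0.51 for LGALS4 and -0.59 to -0.10 for DPP4; the cause was not tested.

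The replicate numbers of the titles are shared by the groups but not said to pair the arrays. The gap between replicates 1 and 2 correlated at 0.364 across genes between the groups, and 6 of the 10 genes had it in the same direction in both, against 58.1% of all genes. With the replicate block DPP4 had an unadjusted limma p of 0.0127 and an adjusted p of 0.123. For LGALS4 these were 0.0506 and 0.247. The count of scaffold genes called higher was 1 in place of 2 with the block (BAIAP2L1 was called and STK10 was not). That of family relatives was 2, LGALS1 and GSN (limma adjusted p = 0.0386 and 0.0428), in place of 0. With any 1 array left out, 70 to 104 genes were called in place of 660, and the counts of scaffold genes called higher and of transcription factors called lower were 0 in each of these fits, in which the lone array of a group is assumed to vary like the other group. By the unadjusted p 3305 genes passed, and by the 2-fold rule 274. Counting as low what lay under the array medians, and not under 5, gave 4 brush border genes in place of 0.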
